A study of Homo sapiens with 6 samples.

Results

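The lysosome genes described here are 47 genes for enzymes that break down macromolecules, for proteins of the lysosomal membrane, for 3 transcription factors of lysosomal genes and for the proton pump. They were named as a list of symbols by their known roles, at a time when earlier results of these data were known. Each matched 1 of the 58219 genes of the deposited table. Messenger RNA was sequenced from IMR90, a diploid cell line of human lung fibroblasts. The cells carried ER-RAS, an oncogenic RAS fused to part of the oestrogen receptor that becomes active when 4-hydroxytamoxifen (4OHT) binds. Cells labelled committed received 100 nM 4OHT for 72 h (titles: 3 days) in 3 libraries, and cells labelled uncommitted received 100 nM for 30 h (titles: 1.5 days) in 3 libraries. All 6 libraries, A to C at each time, therefore carry the construct and the drug, and time under RAS signalling and commitment to senescence cannot be told apart. Setting 72 h against 30 h shows which lysosomal transcripts differ between these states. Since these are bulk samples of RNA, a smaller part of the cells and less RNA per cell cannot be told apart either.

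Lysosomes digest sugar chains, lipids and proteins with hydrolases that work in acid, and the acid is made by the V-ATPase, a pump whose V1 part splits ATP outside the membrane while its V0 part carries protons through it. Many of these genes are bound by TFEB, TFE3 and MITF, the MiT/TFE transcription factors, at a palindrome called the CLEAR element. Senescent fibroblasts are known for an enlarged lysosomal compartment, and the stain named senescence-associated beta-galactosidase reads the activity of the enzyme encoded by GLB1.

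The CLEAR palindrome (10 bases) and its 6-base core CACGTG were looked for in promoter windows of RefSeq (GRCh38.p14, 250 bases before to 50 after a start site), which held 35 of the 47 genes. The full palindrome is the core with GT before it and AC after it. Because both motifs are their own reverse complement, 1 search covers both strands, and every 10-base match also counts as a match of the core. The following stretches are shown because genes with the same core went in different directions; they are written 5′ to 3′ along the gene, with capitals for the motif (10 bases where the full palindrome is present, otherwise 6).
GAA (chr17:80101493-80101560, + strand): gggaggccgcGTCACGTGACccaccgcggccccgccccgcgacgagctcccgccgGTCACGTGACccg
ATP6V1G1 (chr9:114587699-114587728, + strand): acgctgtgcgGTCACGTGACaacgggggcg
ATP6V0D1 (chr16:67481199-67481228, - strand): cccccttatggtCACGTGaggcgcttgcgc
MCOLN1 (chr19:7522571-7522623, + strand): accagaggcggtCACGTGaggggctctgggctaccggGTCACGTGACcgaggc
GALNS (chr16:88857104-88857133, - strand): caggcaccgcGTCACGTGACccgccgctgg
ARSB (chr5:78986101-78986130, - strand): taattcaataagCACGTGactaaaggattt
CD63 (chr12:55729172-55729201, - strand): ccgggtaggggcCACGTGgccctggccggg
LAMP1 (chr13:113297035-113297114, + strand): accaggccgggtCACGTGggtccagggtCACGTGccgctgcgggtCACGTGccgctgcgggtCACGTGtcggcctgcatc
By the gene coordinates of the deposited table, the stretches of ATP6V0D1 and CD63 and the end of that of GAA lie inside the gene's span, and the others lie before it.

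The libraries held 13221152 to 15703544 reads assigned to genes. A normalised count below is a library's reads for a gene divided by the authors' size factor. Of the 47 genes, 45 reached 10 normalised counts in at least 3 libraries and were tested. CLN3, a membrane protein lost in a childhood neurodegeneration, had 2, 3 and 3 reads at 72 h and 2, 0 and 5 at 30 h. ATP6V0C, the main proteolipid of the proton channel, had 1, 2 and 3 reads at 72 h and 2, 0 and 1 at 30 h. Both were at the floor of 3 reads or close to it in every library. In GENCODE 29, 57.5% of the exonic length of ATP6V0C and 25.2% of that of CLN3 are shared with read-through genes on the same strand, which also had 0 reads. The part of this overlap in the low counts was not tested, and no change is given for these 2 genes. All 8 listed fibroblast markers were detected, and their summed level (normalised counts per kilobase of exon) was 9310 to 10900 at 72 h, against 26400 to 27900 at 30 h. VIM made up most of it, with means of 7757 at 72 h and 18670 at 30 h. Of 8 markers of macrophages and other immune cells, 1 was abundant enough to test (CSF1R), CD3E was at 0 and PTPRC, the gene of CD45, had at most 5 reads in a library. Their summed level ranged over 12.1 to 16.1 at 72 h, against 5.88 to 11.3 at 30 h. In it CSF1R alone averaged 10.8 at 72 h and 3.18 at 30 h, while CD14 averaged 2.46 at 72 h and 3.99 at 30 h. None of 4 endothelial markers was abundant enough to test (CDH5 was at 0), with sums of 3.16 to 4.56 at 72 h and 1.39 to 2.17 at 30 h. Of 7 epithelial markers, KRT18 and KRT8 were tested and SFTPC, SFTPB and KRT5 were at 0, with sums of 170 to 192 at 72 h, against 210 to 231 at 30 h. Most of these sums was KRT18, at 170 on average at 72 h and 204 at 30 h. Mitochondrial genes took 4.23% to 4.83% of reads at 72 h and 3.56% to 4.06% at 30 h. The second principal component (6.99% of the variance) set both letter C libraries apart. The part of these shifts in the results below was not tested.

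Lysosomal genes moved in both directions. Of the 45 tested with limma on the log2 scale, 14 rose, 17 fell and 14 did not pass a Benjamini-Hochberg adjusted p under 0.05 over all 13315 genes tested. Called genes made up 68.9% of them, against 48.6% of all genes tested (23.6% higher and 25.0% lower at 72 h). The lysosomal genes were also more abundant, with a median of 1064 normalised counts against 341 for all genes tested, and the part of abundance in that share was not tested. Their log2 fold changes had a median of -0.0083, against 0.00509 over all genes tested, and the median size without sign was 0.30 and 0.28. The changes were moderate: MITF was the 1 called gene that changed at least 2-fold, and the largest rise among the 45 was 1.84-fold, while 24.4% of all called genes reached 2-fold. The 2 groups did not overlap for 33 of the 45, against 59.2% of all genes tested. Without both libraries of letter C, 15 rose and 16 fell, an alternative chosen after seeing the data. In that setting 7081 of all genes tested were called, against 6472 with all libraries. In the authors' deposited table, 13 were higher and 16 lower at 72 h, with 5510 of all genes tested called.

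By role, V1 subunits of the pump were mostly higher at 72 h (5 of 8 rose, 1 fell), and proteins of the membrane and of cholesterol export were mostly lower (6 of 7 tested fell, 0 rose). Enzymes and activators were divided, with 8 of 21 higher and 6 lower. Of the 3 MiT/TFE factors, 0 rose and 2 fell. No test between roles was made.

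**Figure D1:**
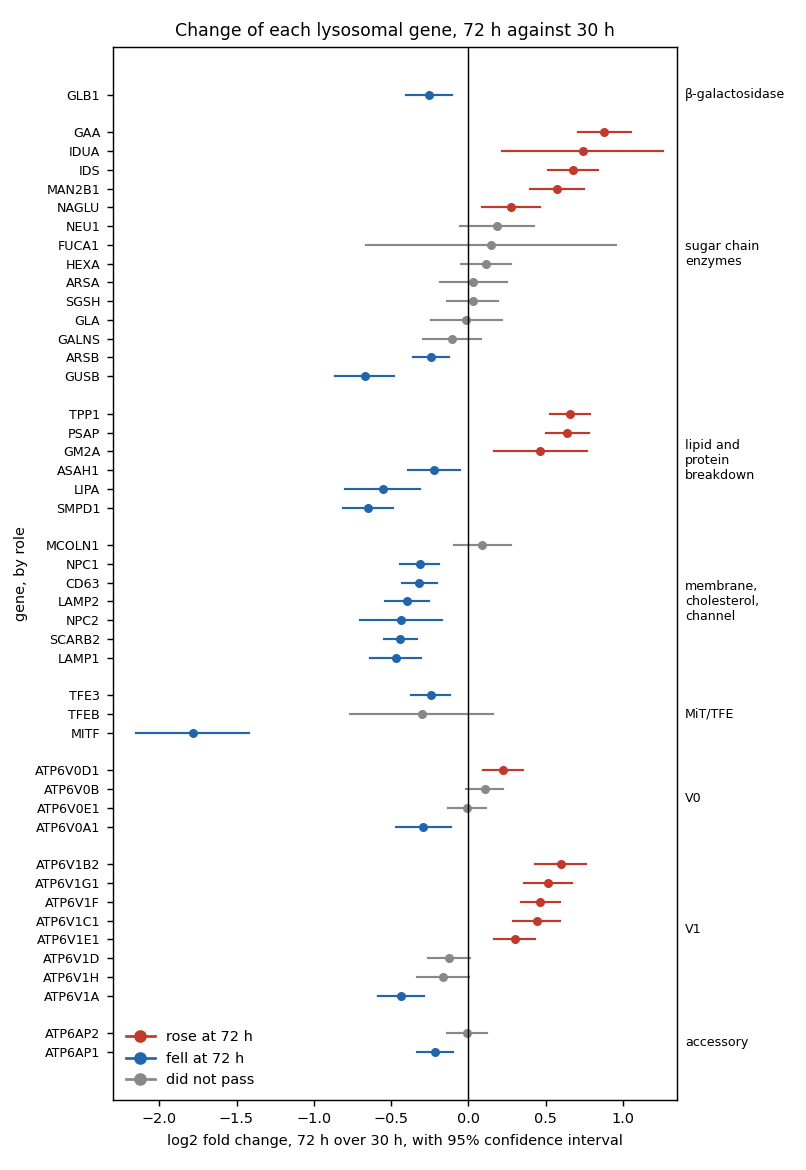
Log2 fold change of each tested lysosomal gene, 72 h over 30 h (x axis), with its 95% confidence interval from limma; genes run down the page by role, in red where they rose, blue where they fell and grey where they did not pass. MITF stands at -1.78 at the low end and GAA at 0.88 at the high end, and 6 of 7 genes of the membrane and cholesterol group lie left of 0.

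GLB1, the gene of lysosomal beta-galactosidase (ENSG00000170266.15, chromosome 3, 32996608 to 33097230 on GRCh38), was lower at 72 h. It had 783, 892 and 785 normalised counts at 72 h, against 950.4, 984 and 996 at 30 h. All 3 libraries of 72 h lay below all 3 of 30 h, and replicate B of 72 h came closest to them. The means were 819.8 ± 62.5 at 72 h and 977 ± 23.5 at 30 h (SD, n = 3 each). The log2 fold change was -0.25 ± 0.0674 (SE), adjusted p = 0.0109. Without replicate A of 72 h the log2 fold change was -0.22 with adjusted p = 0.0507 and did not pass (0.00431 to 0.0507 over all alternatives). In the authors' deposited table it was -0.25 with adjusted p = 0.0281. Per kilobase of exon, GLB1 averaged 188 ± 14.3 at 72 h and 224 ± 5.38 at 30 h, rank 25 and rank 22 among the 45 tested. The exonic length used joins all annotated exons of a gene (19.3 kb for SCARB2), so ranks between genes depend on the annotation and are rough. Exons of GLB1 share 1.9% of their length with TMPPE on the same strand, a gene with 43.9 normalised counts at 72 h and 48.3 at 30 h on average.

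The enzyme works in the lysosome bound to 2 partners, the sialidase encoded by NEU1 and the protective carboxypeptidase encoded by CTSA. NEU1 had 1199.7, 1253 and 951 normalised counts at 72 h, against 1005, 915 and 1058 at 30 h. Its groups overlapped, since replicate C of 72 h lay below 2 of the 3 libraries of 30 h, and it did not pass (log2 fold change 0.18, adjusted p = 0.183). Without that library it passed, at 0.31 with adjusted p = 0.00682. CTSA, named here after its value was seen, had 2570.0, 2722 and 2107 normalised counts at 72 h, against 2401, 2416 and 2395 at 30 h, and its groups overlapped too (log2 fold change 0.03, adjusted p = 0.811). The 95% confidence intervals were -0.06 to 0.43 for NEU1, against -0.41 to -0.10 for GLB1. GLB1L, a relative of GLB1, had a log2 fold change of -0.20 and adjusted p = 0.522, and GLB1L2 and GLB1L3 had at most 4 reads in a library.

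**Figure D2:**
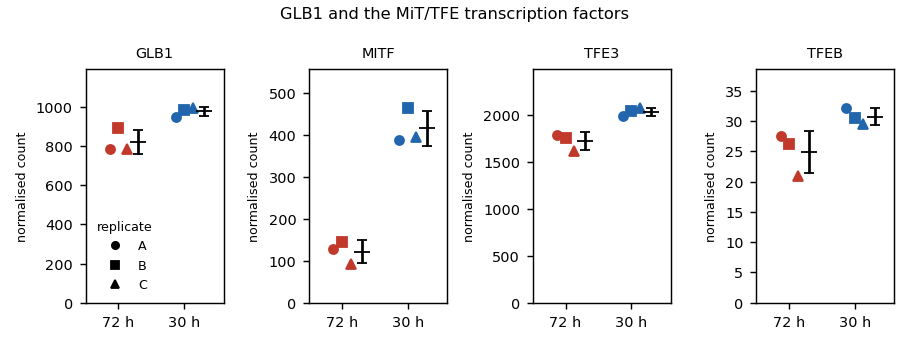
Normalised counts of GLB1, MITF, TFE3 and TFEB (y axes from 0) in each library at 72 h (red, left) and 30 h (blue, right), with the replicate letter as the marker and the mean ± SD (n = 3) in black. In each panel the 3 libraries of 72 h lie below the 3 of 30 h, by most for MITF and at 21.0 to 32.2 normalised counts for TFEB.

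Among 14 other enzymes of sugar chains, 5 rose, 2 fell and 7 did not pass, so that 7 of 14 were called, a share near the 48.6% of all genes tested. The number that rose was 3 without replicate A of 30 h and also without replicate B of 72 h. GAA, the alpha-glucosidase that frees glucose from glycogen (chromosome 17, 80101556 to 80119879), showed the largest rise among the 45 genes. It had 527, 525 and 582 normalised counts at 72 h, against 290.5, 309 and 288 at 30 h. Every library of 72 h was far above those of 30 h, and the log2 fold change was 0.88 ± 0.0765 (SE) with adjusted p = 1.79e-05. The ratio of GAA to GLB1 per kilobase was 0.57, 0.498 and 0.628 at 72 h, against 0.259, 0.266 and 0.245 at 30 h. Since GAA rose and GLB1 fell without overlap, the ratios had to separate, and no test was made.

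Enzymes that take heparan and dermatan sulfate apart went both ways. IDS, the iduronate sulfatase that acts first on both chains (chromosome X, 149476990 to 149521096), had 1872, 1746 and 1815 normalised counts at 72 h, against 1064, 1081 and 1263 at 30 h. The groups stood well apart (log2 fold change 0.68 ± 0.0725 (SE), adjusted p = 6.1e-05), although IDS has a close pseudogene copy and shares 16.5% of its exonic length with another gene on the same strand, so part of its reads is uncertain. IDUA, the iduronidase of the next step, had 152, 177 and 108 normalised counts at 72 h, against 76.0, 71.1 and 114 at 30 h. Here replicate C of 30 h lay above replicate C of 72 h and the groups overlapped. Its log2 fold change was 0.74 ± 0.229 (SE) with adjusted p = 0.0257, and this call was lost without replicate A or B of either time (adjusted p = 0.0808 to 0.0923). Without both libraries of letter C the value was 1.15. GUSB, the beta-glucuronidase that removes glucuronic acid, had 229.9, 241 and 241 normalised counts at 72 h, against 409, 355 and 372 at 30 h. It fell, with a clear gap between the groups (log2 fold change -0.67 ± 0.0852 (SE), adjusted p = 0.000176), and close pseudogene copies make part of its reads uncertain as well.

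NAGLU, a glucosaminidase of heparan sulfate, had 390.4, 424 and 399.6 normalised counts at 72 h, against 307, 362 and 334 at 30 h. It rose 1.21-fold (adjusted p = 0.0214) with no overlap, a call that was lost without replicate A of 30 h (adjusted p = 0.0894) or replicate B of 72 h (0.0744) and in the authors' deposited table (0.0674). SGSH, the sulfamidase of the same pathway, did not pass, with a log2 fold change of 0.03 and an interval of -0.14 to 0.19. MAN2B1, the alpha-mannosidase of glycoproteins, rose 1.49-fold, with 699, 732 and 764 normalised counts at 72 h, against 445, 509 and 522 at 30 h. ARSB, a sulfatase of dermatan and chondroitin sulfate, had 934, 927 and 946 normalised counts at 72 h, against 1111, 1093 and 1113 at 30 h. Its replicates lay close together at both times, and a small change passed (log2 fold change -0.24 ± 0.0519 (SE), adjusted p = 0.0038).

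HEXA, GLA, GALNS, ARSA, FUCA1 and, given above, SGSH and NEU1 did not pass. HEXA, the alpha subunit of hexosaminidase, had 610.1, 678 and 584 normalised counts at 72 h, against 559, 577 and 591 at 30 h. Its groups overlapped, with an interval of -0.05 to 0.28 on the log2 scale. GLA, the alpha-galactosidase of glycolipids, had 563, 583 and 474 normalised counts at 72 h, against 481, 561 and 594 at 30 h, and overlapped widely (log2 fold change -0.01, interval -0.24 to 0.22). GALNS, a sulfatase of keratan sulfate, had 557 to 645 normalised counts at 72 h and 593 to 691 at 30 h, and ARSA, the sulfatase of sulfatide, 228 to 252 and 212 to 244 at the same times. Their intervals were -0.29 to 0.08 and -0.18 to 0.25. FUCA1, the fucosidase, had 8 to 16 reads in each library, with an interval of -0.66 to 0.95, and a change within it was not detectable at this depth.

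All 6 genes for the breakdown of lipids and proteins passed, 3 higher and 3 lower, while 48.6% of all genes tested were called. The calls of GM2A and ASAH1 were lost under some alternatives. PSAP, the precursor of the saposins that present lipids to their enzymes (chromosome 10, 71816298 to 71851375), had 10898, 11693 and 12190.4 normalised counts at 72 h, against 7286, 7185 and 7822 at 30 h. It was one of the most abundant lysosomal transcripts, and all 3 libraries of 72 h exceeded those of 30 h (log2 fold change 0.64 ± 0.0612 (SE), adjusted p = 2.97e-05). TPP1, a protease that removes tripeptides, had 2594, 2504 and 2681 normalised counts at 72 h, against 1567, 1614 and 1753 at 30 h, again without overlap (log2 fold change 0.66 ± 0.0590 (SE), adjusted p = 2.14e-05). GM2A, the activator that presents ganglioside GM2 to hexosaminidase, had 809, 936 and 641 normalised counts at 72 h, against 553, 613 and 544 at 30 h. It rose 1.38-fold (adjusted p = 0.0182). That call was lost without replicate A of 30 h, replicate C of 30 h or replicate A of 72 h (adjusted p = 0.061 to 0.0661), and replicate C of 72 h was its lowest library of 72 h at 641 normalised counts.

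Enzymes of sphingomyelin, ceramide and cholesterol ester went the other way. SMPD1, the acid sphingomyelinase (chromosome 11, 6390431 to 6394998), had 664, 779.5 and 692 normalised counts at 72 h, against 1150.3, 1138 and 1063 at 30 h. It fell 1.57-fold, with a wide gap between the nearest libraries (log2 fold change -0.65 ± 0.0726 (SE), adjusted p = 7.76e-05). LIPA, the acid lipase that frees cholesterol from its esters, fell 1.47-fold, with 340.3, 389.8 and 460.5 normalised counts at 72 h, against 602, 601 and 535 at 30 h. ASAH1, the acid ceramidase, had 1147, 1114 and 959 normalised counts at 72 h, against 1200.0, 1236 and 1311 at 30 h. The groups did not overlap (adjusted p = 0.0339). The fall of ASAH1 was lost in the authors' deposited table (adjusted p = 0.0772) and with DESeq2 (0.0767). It was also lost when any of 4 libraries was left out (replicates A, B or C of 30 h or C of 72 h, adjusted p = 0.0518 to 0.0898), and without replicate C of 72 h its log2 fold change was -0.14 in place of -0.22. Without both libraries of letter C it was -0.11 with adjusted p = 0.149.

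**Figure D3:**
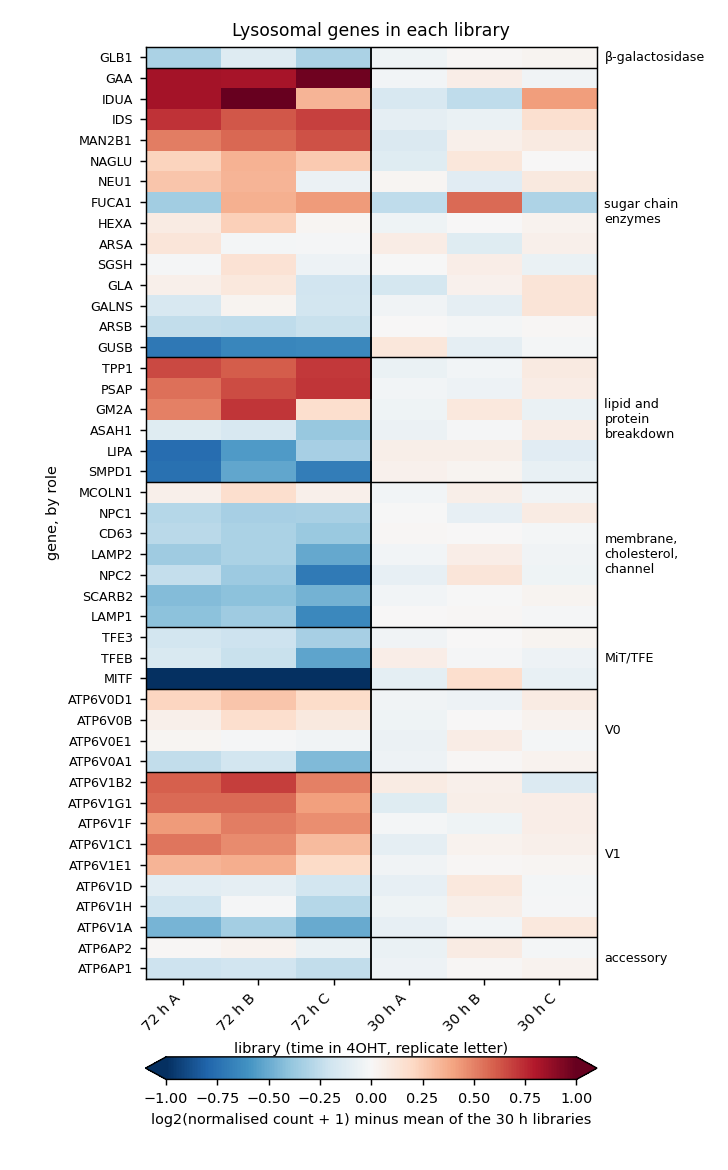
Each of the 45 tested lysosomal genes (rows, by role) in each library (columns, 72 h left of 30 h) as log2(normalised count + 1) minus the mean of the 3 libraries of 30 h, with colours held at -1 and 1. In the membrane and cholesterol group, the 6 genes that fell are blue at 72 h in replicates A, B and C. The 5 V1 subunits that rose are red at 72 h in each replicate, while ATP6V1A is blue. IDUA, FUCA1 and NEU1 differ between replicates.

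The listed genes for lysosomal membrane proteins and cholesterol export mostly fell, 6 of the 7 tested, against a share of 25.0% lower among all genes tested. This did not extend to the 21 other membrane proteins and transporters tested, of which 7 rose and 3 fell (median log2 fold change 0.129). LAMP1, one of the heavily glycosylated proteins that line the inner face of the membrane (chromosome 13, 113297241 to 113323672), had 3939, 4088 and 3344 normalised counts at 72 h, against 5233, 5279 and 5174 at 30 h. The libraries of 30 h lay close to each other and all above those of 72 h, among which replicate C was lowest (log2 fold change -0.47 ± 0.0735 (SE), adjusted p = 0.000613). Its relative LAMP2, which is also a receptor for chaperone-mediated autophagy, had 2137, 2194 and 1924 normalised counts at 72 h, against 2681, 2870.0 and 2669 at 30 h. It fell 1.32-fold, without overlap (adjusted p = 0.000698). Ratios of LAMP1 to LAMP2 per kilobase were 1.78, 1.79 and 1.67 at 72 h, against 1.88, 1.77 and 1.87 at 30 h, and overlapped (exact two-sided permutation p = 0.3, also 0.3 after adjustment over the 2 ratios tested).

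SCARB2, the receptor that carries glucocerebrosidase to the lysosome (chromosome 4, 76158733 to 76234536), had 3320.1, 3368 and 3229.6 normalised counts at 72 h, against 4411, 4478 and 4569 at 30 h. Its replicates were close at both times and the groups stood apart (log2 fold change -0.44 ± 0.0483 (SE), adjusted p = 7.06e-05). CD63, a tetraspanin of late endosomes and exosomes and the most abundant gene of the set per kilobase, averaged 3741 ± 127 at 72 h and 4659 ± 47.7 at 30 h on that scale. Without that correction it had 10175, 9870.3 and 9505 normalised counts at 72 h, against 12380.1, 12289.7 and 12132 at 30 h. Its libraries of 72 h were all lower, and it fell 1.25-fold (adjusted p = 0.00076).

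NPC1 and NPC2 together move cholesterol out of the lysosome, NPC2 as the soluble carrier and NPC1 in the membrane. NPC2 had 592, 542 and 429 normalised counts at 72 h, against 662, 763 and 678 at 30 h. Replicate C of 72 h was its lowest library, and the groups did not overlap (log2 fold change -0.44 ± 0.117 (SE), adjusted p = 0.0132), though the call was lost without replicate B of 30 h (adjusted p = 0.0537). NPC1 fell 1.24-fold (adjusted p = 0.00134), with 1914 to 1977 normalised counts at 72 h and 2281 to 2558 at 30 h. MCOLN1, a calcium channel that signals from the lysosome, had 292, 317 and 292 normalised counts at 72 h, against 276, 294 and 275 at 30 h. It overlapped and did not pass, and its interval of -0.09 to 0.27 does not show that it was equal at the 2 times.

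The MiT/TFE transcription factors differed widely in abundance. TFE3 was by far the most abundant per kilobase, with 402 ± 21.8 at 72 h and 475 ± 10.1 at 30 h (SD, n = 3 each). MITF averaged 16.9 ± 3.73 at 72 h and 57.9 ± 5.89 at 30 h on this scale, and TFEB 4.41 ± 0.616 at 72 h and 5.44 ± 0.237 at 30 h. In normalised counts not divided by length, TFE3 had 1791, 1758 and 1615 at 72 h, against 1989.6, 2039 and 2075 at 30 h, with no overlap and a small fall (log2 fold change -0.24 ± 0.0566 (SE), adjusted p = 0.00587). MITF (chromosome 3, 69739435 to 69968337) had 128, 145 and 92.3 normalised counts at 72 h, against 388, 464 and 394 at 30 h. It was the largest change of the 45 genes, 3.44-fold lower at 72 h, and the groups stood far apart (log2 fold change -1.78 ± 0.161 (SE), adjusted p = 3.23e-05). RefSeq gives MITF 3 start sites in these tables, and counts per gene do not tell its isoforms apart. TFEB had 27.6, 26.2 and 21.0 normalised counts at 72 h, against 32.2, 30.5 and 29.5 at 30 h. All 3 libraries of 72 h were below those of 30 h, but at 20 to 33 reads a library the change did not pass (log2 fold change -0.30, interval -0.76 to 0.16, adjusted p = 0.259).

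The core motif of the printed stretches was found in 11 of the 35 genes with a window (31.4%), against 7.26% of all 35116 windows and 12.6% of the 9670 tested genes with a window. The full palindrome was in 4 (11.4%), GAA, ATP6V1G1, GALNS and MCOLN1, against 0.353% of all windows and 0.889% of those tested genes. Some genes have several windows, and these shares are descriptions without a test. LAMP1 held the core 6 times and GAA held the full palindrome at both of its matches. The LAMP1 sites at -28 and -1 bases from the start site lie outside its printed stretch, as does the GALNS site at -32. LAMP1 is also among 7 genes that held the core with T before it and A after it. Of 10 tested genes with the core, 3 rose (GAA, ATP6V1G1 and ATP6V0D1), 3 fell (ARSB, CD63 and LAMP1) and 4 did not pass (NEU1, ATP6V0B, MCOLN1 and GALNS). Of 23 tested genes with a window but without the core, 7 rose, 11 fell and 5 did not pass. Among all genes tested, 23.6% rose and 25.0% fell. The core was therefore found in windows of genes of either direction. The full palindrome was in GAA and ATP6V1G1, which rose, and in GALNS and MCOLN1, which did not pass. ARSB, CD63 and LAMP1, which fell, held the core only outside it. This split was not tested. No binding was measured, and a match of letters is no site.

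**Figure D4:**
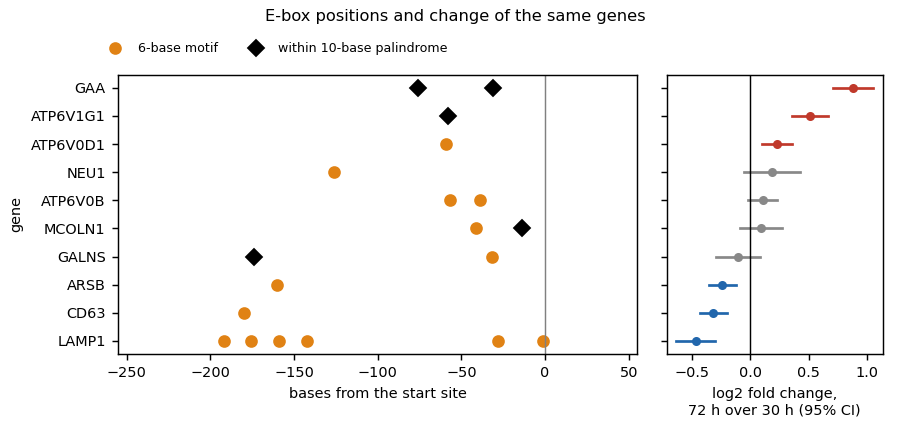
Left, positions of the 6-base core CACGTG in the promoter windows of 10 tested lysosomal genes, in bases from the RefSeq start site (x axis, 0 is the first base of the transcript), with black diamonds where the core lies within the 10-base palindrome. Right, log2 fold change of the same genes, 72 h over 30 h, with 95% confidence intervals, from GAA at 0.88 to LAMP1 at -0.47.

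The proton pump was measured by 14 tested genes, of which 6 rose, 3 fell and 5 did not pass. Of 8 V1 genes, 5 rose, 1 fell and 2 did not pass, with a median log2 fold change of 0.37; among all genes tested, 23.6% rose and 25.0% fell. In the V0 part, 4 genes were tested: 1 rose, 1 fell and 2 did not pass (median 0.0488). The summed level of the 8 V1 genes per kilobase was 6450, 6630 and 6070 at 72 h, against 4840, 5130 and 5220 at 30 h. That of the V0 genes was 2140, 2160 and 2090 at 72 h, against 2010, 2160 and 2090 at 30 h. These sums are dominated by the short genes ATP6V1G1 and ATP6V1F in V1 and ATP6V0E1 in V0, and hold ATP6V0C only at its level near 0.

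The catalytic head of V1 is a ring in which A and B subunits alternate, and their transcripts moved apart. ATP6V1B2, the B subunit found in most tissues (chromosome 8, 20197367 to 20226819), had 2578, 2754 and 2423 normalised counts at 72 h, against 1810.2, 1769 and 1550.2 at 30 h. ATP6V1A, the A subunit that splits ATP (chromosome 3, 113747019 to 113812056), had 1768, 1928 and 1716 normalised counts at 72 h, against 2301, 2395 and 2624 at 30 h. The B subunit was higher and the A subunit lower in all 3 libraries of 72 h, with log2 fold changes of 0.60 ± 0.0731 (SE) and -0.43 ± 0.0672 (SE) and adjusted p = 0.000138 and 0.000567. Per kilobase, the ratio of ATP6V1B2 to ATP6V1A was 0.957, 0.937 and 0.927 at 72 h, against 0.516, 0.485 and 0.388 at 30 h. Their means were 0.94 ± 0.015 at 72 h and 0.463 ± 0.067 at 30 h (SD, n = 3 each), and no test was made, since the opposite changes of the 2 genes fix the direction. ATP6V1B1, the B subunit of kidney and inner ear, had at most 9 reads in a library.

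The stalks that hold the head are built from E and G subunits, with C and H as connectors and D and F in the rotating shaft. ATP6V1G1, a stalk subunit (chromosome 9, 114587746 to 114598373), had 2883, 2883 and 2594 normalised counts at 72 h, against 1789, 2024 and 2041 at 30 h. All 3 libraries of 72 h exceeded those of 30 h (log2 fold change 0.51 ± 0.0690 (SE), adjusted p = 0.000241), and ATP6V1E1, with which it pairs, rose 1.23-fold (adjusted p = 0.0024). Their ratio per kilobase, G1 over E1, was 2.92, 2.87 and 2.91 at 72 h, against 2.35, 2.57 and 2.58 at 30 h, without overlap (exact two-sided permutation p = 0.1, the smallest that 3 against 3 allows, and 0.2 after adjustment over the 2 ratios tested).

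ATP6V1F, of the shaft, had 1341, 1419.5 and 1376 normalised counts at 72 h, against 984, 968 and 1042 at 30 h, without overlap (log2 fold change 0.47 ± 0.0561 (SE), adjusted p = 0.000125). KCP overlaps 23.7% of the exonic length of ATP6V1F on the opposite strand, and the sources used here do not give the authors' use of strand. KCP itself averaged 12.95 normalised counts at 72 h and 8.43 at 30 h. The partner of ATP6V1F in the shaft, ATP6V1D, had 1783, 1798 and 1689.8 normalised counts at 72 h, against 1809, 2056 and 1891 at 30 h. It did not pass, at -0.13 (interval -0.26 to 0.01). ATP6V1C1, which links the stalks to V0 and leaves when the pump is taken apart, had 3022, 2900.1 and 2602 normalised counts at 72 h, against 1963, 2137 and 2159.8 at 30 h. It rose 1.36-fold (adjusted p = 0.000539). ATP6V1H, the other connector, had 900.3, 1025 and 852 normalised counts at 72 h, against 1005, 1077 and 1027 at 30 h. It overlapped and did not pass (log2 fold change -0.17, adjusted p = 0.0926), but it passed without replicate B of 72 h, at -0.24 with adjusted p = 0.0187.

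**Figure D5:**
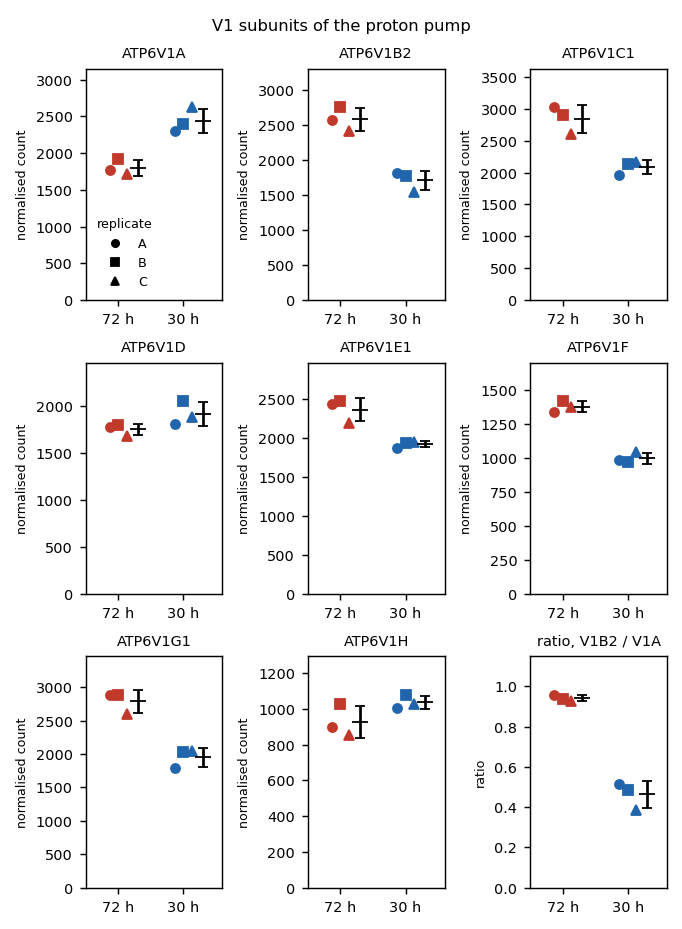
Normalised counts of the 8 V1 subunits (y axes from 0) in each library at 72 h (red, left) and 30 h (blue, right), with the replicate letter as the marker and the mean ± SD (n = 3) in black; the last panel gives the ratio of ATP6V1B2 to ATP6V1A per kilobase of exon. ATP6V1A lies lower and ATP6V1B2 higher at 72 h, and the ratio is 0.927 to 0.957 at 72 h and 0.388 to 0.516 at 30 h.

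Among the V0 genes, changes that passed were small. ATP6V0A1, an isoform of the large subunit that lines the proton path, had 560.0, 588 and 489 normalised counts at 72 h, against 643, 673 and 682 at 30 h. It fell 1.22-fold (adjusted p = 0.0125) with no overlap. ATP6V0D1, which couples the shaft to the rotor, had 1544, 1609.6 and 1509 normalised counts at 72 h, against 1298, 1282 and 1408 at 30 h, and rose 1.17-fold (adjusted p = 0.00946). ATP6V0B, a proteolipid of the rotor, had 1658, 1805 and 1716 normalised counts at 72 h, against 1562, 1611 and 1642 at 30 h. Its 3 libraries of 72 h lay above those of 30 h by little, and it did not pass (log2 fold change 0.10, adjusted p = 0.139). ATP6V0E1, a small membrane subunit, had a log2 fold change of -0.01 with an interval of -0.13 to 0.11.

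Of the accessory proteins, ATP6AP1, which helps to assemble V0, had 1628, 1645 and 1584 normalised counts at 72 h, against 1818, 1895 and 1927 at 30 h. It fell 1.16-fold (adjusted p = 0.00634), and all its libraries of 72 h were below those of 30 h. ATP6AP2, the prorenin receptor, had 3454, 3500.0 and 3261 normalised counts at 72 h, against 3275, 3631 and 3373 at 30 h. Its groups overlapped, and the interval of its log2 fold change was -0.14 to 0.12.

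Of 99 other lysosomal genes tested, from 5 lists, 28 rose and 19 fell, or 47.5% called, close to the 48.6% of all genes tested. The number that rose was 18 without replicate B of 72 h, 34 with quantile normalisation and 35 without both libraries of letter C. Among other subunits and assembly factors of the pump, 5 of 14 rose and 3 fell (57.1% called). The largest changes there were a rise of 1.92-fold for NCOA7, a protein that binds V1, and one of 1.55-fold for ATP6V0A2, the isoform of the large V0 subunit known from the Golgi and endosomes. ATP6V0A2 had 698, 689 and 731 normalised counts at 72 h, against 421, 459 and 485 at 30 h, without overlap. Whether this isoform and ATP6V0A1 differ in their change was not tested. Among genes for nutrient sensing at the lysosome and control of TFEB, 10 of 24 rose and 3 fell (54.2% called). FNIP1, a partner of folliculin, had 2056, 1928 and 1783 normalised counts at 72 h, against 1277, 1230.3 and 1185 at 30 h, and rose (adjusted p = 4.02e-05). ZKSCAN3, a repressor of autophagy and lysosome genes, had 55.2, 37.5 and 51.4 normalised counts at 72 h, against 87.7, 73.1 and 87.5 at 30 h, and fell (adjusted p = 0.00592).

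Of 15 genes for sorting to the lysosome, 2 rose and 4 fell, or 40.0% called, against 48.6% of all genes tested. SORT1, the sorting receptor sortilin, had 439, 528 and 421 normalised counts at 72 h, against 1496, 1527 and 1574 at 30 h. It was 3.32-fold lower at 72 h (adjusted p = 5.08e-07), with no overlap. GNPTAB, the enzyme that makes the mannose 6-phosphate tag of lysosomal enzymes, fell 1.34-fold (adjusted p = 0.00365). Of 25 other hydrolases and activators, 4 rose and 6 fell, also 40.0% called. The sulfatase genes ARSG and ARSK moved apart, 2.49-fold higher and 2.27-fold lower (adjusted p = 9.9e-06 and adjusted p = 3.54e-06). Exons of ARSG, with 327 normalised counts at 72 h and 131 at 30 h on average, overlap more abundant genes on the opposite strand. SLC16A6 shares 2.19% of their length and averaged 15270 normalised counts at 72 h and 6370 at 30 h. WIPI1 shares 12.6% and averaged 1561 at 72 h and 1240 at 30 h. The part of these overlaps in the rise of ARSG was not tested. Of 21 other membrane proteins and transporters, 7 rose and 3 fell (47.6% called). TPCN1, a calcium and sodium channel of endosomes and lysosomes, had 1755, 1725 and 1648 normalised counts at 72 h, against 468, 594 and 796 at 30 h, and was 2.82-fold higher (adjusted p = 0.00108). SLC29A3, a nucleoside transporter, averaged 51.9 ± 1.63 normalised counts at 72 h and 23.0 ± 3.55 at 30 h (SD, n = 3 each; adjusted p = 0.000945).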

How the data were processed

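The submitters' processing notes name Trimmomatic 0.35 for trimming, STAR 2.5.1b for alignment, DESeq2 1.18.1 and the build GRCh38 (hg38). No label or header gives the read counter, the annotation or the strand setting. The deposited signal values are read counts that the authors divided by 1 size factor per library. In each library 100% of them were whole multiples (within 0.01) of the smallest value above 0, which gave back whole reads. Per the file headers, further deposited columns give a log2 fold change by the authors, a score (the Wald statistic) and p-values. Separate cultures are not stated for the replicates. The p-values therefore measure only how far these libraries spread, which may be technical. Replicates differed by 3.13 to 14.9 in chi-square per degree of freedom, more than sampling noise.

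Genes that reached 10 normalised counts in 3 or more libraries entered the test, as log2(value + 1) with limma 3.58.1 (trend, robust; R 4.3.3), Benjamini-Hochberg adjusted. Fold changes are on that scale, which understates those of low genes. Alternatives, also with edgeR 4.0.16 and DESeq2 1.42.0 on the recovered reads (count tests), are given below. Of all genes tested, edgeR called 6483 and DESeq2 5511, against 6472 with limma. In simulated counts with 200 changed genes among those tested in this comparison, 62.2% of genes changed 1.5-fold and 83.3% of those changed 2-fold were recovered. There 164 of 13166 genes were called, against 48.6% of all genes tested in the data. Since the adjusted p depends on that share, these figures do not give the recovery in the data. Levels per kilobase use the exonic length of GENCODE 29, which held 99.8% of tested identifiers without their version. That length joins all annotated exons of a gene, so levels and ratios between genes depend on the annotation. Changes of a gene between the times do not. Exons of 23 of the 47 genes overlap another gene, 9 of them over at least 10% of their length. The members and lists were chosen with earlier results of these data known. All members are named; of the other lists, the 2 called genes that changed most, among those averaging 50 or more in the higher of the 2 groups, are named. Other per-sample columns left out numbered 0. A further result on the lists is not reported here.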

Additional observations from a re-analysis of the deposited data

How the results depend on the processing

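Of the 31 lysosomal genes called, 25 kept their call under all 17 alternatives and 6 lost it under at least 1, and none of the called genes changed direction. GLB1 ranged from -0.317 to -0.223 when 1 library was left out. Leaving out 1 library, the 14 rises became 11 to 15 and the 17 falls 15 to 18, the 5 rises among sugar chain enzymes 3 to 6, and the 28 rises among the other lysosomal genes 18 to 28 (34 with quantile normalisation and 35 without both letter C libraries). The 5 rises of V1 subunits remained 5, and the 6 falls in the membrane and cholesterol group 5 or 6. Of the 14 genes that did not pass, 2 passed under some alternative, and 6 changed sign. With each library left out in turn, GLA ranged from -0.101 to 0.078, SGSH from -0.0329 to 0.0663, ARSA from -0.0296 to 0.0693, FUCA1 from -0.00851 to 0.427, ATP6V0E1 from -0.0379 to 0.0316 and ATP6AP2 from -0.0401 to 0.0342. Quantile normalisation gave 0.0183 for GLA, 0.0453 for ATP6V0E1 and 0.0661 for ATP6AP2. Leaving out both libraries of letter C gave 0.142 for GLA, -0.149 for FUCA1 and 0.0118 for ATP6AP2. The cause was not tested.

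Pairing by letter was weak: deviations from the group means correlated at 0.00696 (A), 0.172 (B) and 0.185 (C) between same-letter libraries. The second principal component, however, set both letter C libraries apart (-15.1 at 72 h and -21.4 at 30 h, against 5.93 to 13.4 for the others). With the letter as a replicate block, 13 lysosomal genes rose and 18 fell, and GLB1 kept its call (log2 fold change -0.255); IDUA lost its call (adjusted p = 0.0763) and ATP6V1H passed (log2 fold change -0.166, adjusted p = 0.0482). Of all genes tested, 6723 were called, against 6472.

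Depth limits the values of FUCA1 and TFEB, and CLN3 and ATP6V0C were not tested.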
